A study of Homo sapiens with 6 samples.

Results

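The APOBEC3 cytidine deaminases and UNG, the uracil-DNA glycosylase that removes the product of their reaction from DNA, were examined by RNA-Seq in RPMI8226, an established line of human myeloma cells. The cells received either 100 nM GST alone (glutathione-S-transferase) or 100 nM GST-PTR1, a bacterially made fusion of GST with PTR1, a domain of HAPLN1 from the extracellular matrix, for 6 hr, with 3 libraries per treatment. The members were the genes of the deposited count table whose Ensembl identifiers map to APOBEC3A, APOBEC3B, APOBEC3C, APOBEC3D, APOBEC3F, APOBEC3G, APOBEC3H and UNG, which makes 8 of the 57773 genes on primary chromosomes. Both treatments share the cell line, the dose, the time and the GST moiety, so by design the contrast is of the PTR1 domain in a single cell line. Any difference between the protein preparations goes with that contrast and cannot be told apart from it here. The libraries are called by their deposited column names, and values are given in the order GST003, GST004 and GST005 for GST and PTR002, PTR004 and PTR005 for GST-PTR1. Totals ranged from 15202503 to 44688737 counts per library, so that 3 counts, taken as the limit of detection, were worth 0.0671 to 0.197 CPM, the unit of counts scaled to a common library total. All 8 plasma cell markers examined had at least 10 counts in every library. On plain library totals their summed level was 3995 to 4944 CPM with GST and 3311 to 3967 CPM with GST-PTR1. Of them SDC1, TNFRSF17 and XBP1 were lower and PRDM1 and SLAMF7 higher with GST-PTR1 (edgeR, log2 fold changes −1.03, −1.41, −0.47, 1.35 and 1.52). These fold changes use TMM factors, which level the bulk of genes, whereas all marker sums given here are on library totals. The factors were 1.05 to 1.10 with GST and 0.88 to 0.97 with GST-PTR1, so library totals place GST-PTR1 lower by comparison. On the TMM scale JCHAIN, the most counted, overlapped (2340, 2045 and 2120 CPM with GST, 2090, 2802 and 1942 CPM with GST-PTR1). Whether the sums differ on that scale was not tested. The summed level of 6 T and NK cell markers, mostly CD8A, was 6.23 to 6.51 CPM with GST and 2.93 to 3.63 CPM with GST-PTR1, while that of 4 B cell markers was 1.88 to 2.5 and 1.97 to 2.29 CPM and that of 5 myeloid markers 0.747 to 1.64 and 0.555 to 0.831 CPM. For 6 stromal and epithelial markers, mostly EPCAM and KRT18, it was 164 to 180 CPM with GST and 110 to 119 CPM with GST-PTR1. The cultures were of a single cell line, so transcripts of a marker do not by themselves show cells of another type. In bulk libraries fewer cells with a transcript and less of it per cell cannot be told apart. The part of these markers in the results was not tested.

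APOBEC3 enzymes convert cytosine to uracil in single-stranded DNA. They act against retroviruses and mobile elements, and in tumours, myeloma included, APOBEC3A and APOBEC3B are known as sources of clustered cytosine mutations in the cell's own genome. UNG excises the uracil and opens base excision repair, and a uracil that is copied before excision can be fixed as a mutation. APOBEC3A, APOBEC3C and APOBEC3H have a single deaminase domain, whereas APOBEC3B, APOBEC3D, APOBEC3F and APOBEC3G have a pair of them, of which the C-terminal one carries the catalytic activity in most.

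The 7 APOBEC3 genes lie in a row on the + strand of chromosome 22, between positions 39348746 and 39500072 of GRCh37. APOBEC3C and APOBEC3D overlap in their spans, as do APOBEC3F and APOBEC3G, while at most 1.82% of the exon bases of any of them were shared with another gene on that strand. UNG lies alone on chromosome 12, at 109535379 to 109548797 of the same build. The genes arose by duplication and their transcripts remain alike. Of all 50-base windows in the GENCODE 29 transcripts of APOBEC3B, 37.8% also occurred in transcripts of other members, and the share was 24.5% for APOBEC3A, 20.8% for APOBEC3F, 14.8% for APOBEC3D, 7.06% for APOBEC3G and 1.14% for APOBEC3C. APOBEC3H and UNG shared 0. Reads that fitted several places equally well had been left out of the counts, so levels of APOBEC3A, APOBEC3B, APOBEC3D and APOBEC3F rest on a part of each transcript and are uncertain to that extent.

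Windows of 250 bases before a start site were found in the RefSeq promoter table (GRCh38.p14) for 2 of the 8 members, UNG and APOBEC3H. The table holds 2 windows for UNG and 1 for APOBEC3H. The first of UNG, the repair partner of the deaminases, and that of APOBEC3H, the scarcest of them, are shown. Capitals mark the letters TTGGCGC of the E2F motif, GGGCGG (or CCGCCC) of the GC box, and CCAAT (or ATTGG).
UNG, chr12:109097347-109097596, + strand: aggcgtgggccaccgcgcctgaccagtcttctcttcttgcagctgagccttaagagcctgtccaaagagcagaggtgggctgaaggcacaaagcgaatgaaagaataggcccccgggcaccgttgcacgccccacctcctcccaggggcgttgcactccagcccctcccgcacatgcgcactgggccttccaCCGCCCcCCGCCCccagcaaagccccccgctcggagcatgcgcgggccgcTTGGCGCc
APOBEC3H, chr22:39096994-39097243, + strand: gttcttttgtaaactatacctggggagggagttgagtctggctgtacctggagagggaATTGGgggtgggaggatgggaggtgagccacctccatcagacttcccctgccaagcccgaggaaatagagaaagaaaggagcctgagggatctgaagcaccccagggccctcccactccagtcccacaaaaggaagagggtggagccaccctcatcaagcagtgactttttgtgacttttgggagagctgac
On either strand, TTGGCGC occurred in 2.56%, GGGCGG in 42.6% and CCAAT in 32.0% of the 35116 windows of the table. The second UNG window, chr12:109097922-109098171 and not printed, held TTGGCGC 1 time (on the reverse strand), CCAAT 3 times and GGGCGG 3 times. None of the 3 windows held the NF-κB motif (in 9.96% of windows), the interferon-stimulated response element (3.02%), the STAT letters TTCNNNGAA (6.57%) or TATAAA (10.7%). A match or its absence describes the letters alone.

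Upon exposure to GST-PTR1, transcripts of APOBEC3A and APOBEC3B rose, by 2.28-fold and 1.58-fold, and no member fell. The other members were not called. Of the 8 members, 7 had enough counts to be tested, and 2 of these 7 were higher (28.6%), where 9.15% of all 16926 genes tested were higher, 11.4% lower and 20.6% changed in either direction. A gene was called where its p from the quasi-likelihood test of edgeR, adjusted by the Benjamini-Hochberg method for all genes tested, was below 0.05. The median log2 fold change of the 7 members was 0.31, against 0.01 for all genes tested. On a scale of CPM adjusted by TMM factors, which equalise the bulk of genes between libraries, the 3 GST-PTR1 libraries were all above the 3 GST libraries for 3 members (19.2% of all genes tested) and all below them for none (21.2%), where 40.4% of all genes tested did not overlap in either direction.

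**Figure D1:**
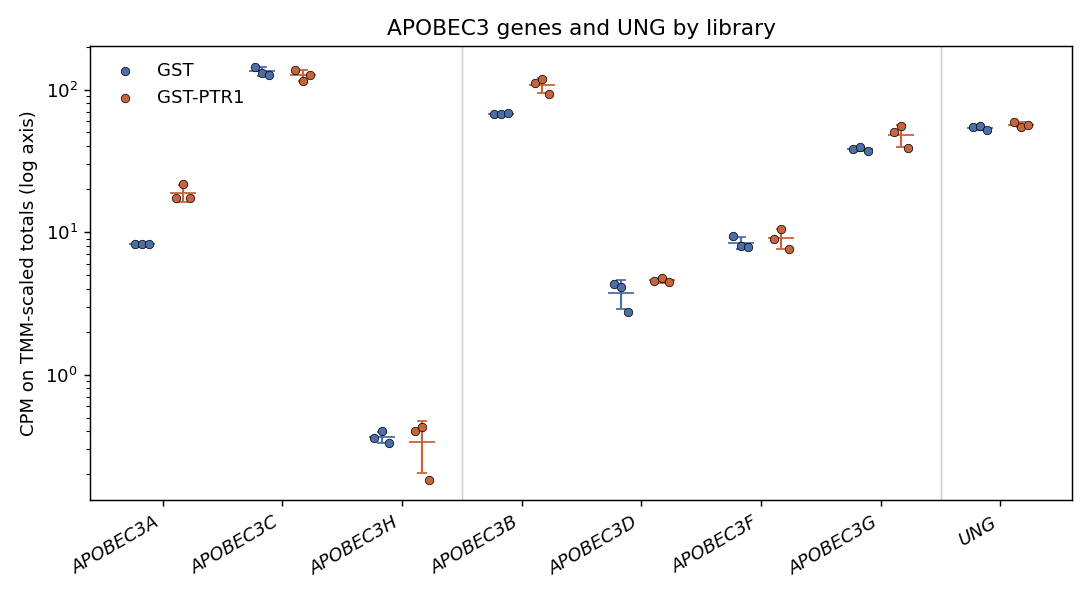
Level of each APOBEC3 gene and UNG in each library, in CPM on TMM-scaled totals (log axis), with single-domain enzymes on the left, double-domain enzymes in the middle and UNG on the right. Points are libraries, lines and bars are the mean ± SD of 3 libraries. The GST-PTR1 points of APOBEC3A, at 17.2 to 21.8 CPM, and of APOBEC3B, at 92.5 to 119 CPM, lie above all GST points of the same gene.

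Among the single-domain enzymes, APOBEC3A (ENSG00000128383, chromosome 22, 39348746 to 39359188), which deaminates DNA in the nucleus and is usually most abundant in myeloid cells, had 138, 206 and 174 counts with GST and 384, 858 and 477 counts with GST-PTR1. On the TMM scale these were 8.29, 8.26 and 8.24 CPM against 17.2, 21.8 and 17.5 CPM. The GST libraries were almost level with each other, every GST-PTR1 library was well above them, and PTR004 was the highest. The GST libraries agreed more closely than counting error would give at such counts, so their small SD is not a measure of precision. The mean went from 8.26 ± 0.0252 to 18.8 ± 2.55 CPM (SD, n = 3), a log2 fold change of 1.19 with a standard error of 0.14 and a 95% interval of 0.89 to 1.49 (edgeR, adjusted p = 0.000122). Its change was larger than that of 96.9% of all genes tested, and 3.68% of genes tested were called higher at 2-fold or more, as APOBEC3A was. Of the 5 myeloid markers, CD14 had 6 to 15 counts per library, CSF1R 2 to 14, ITGAM 1 to 8, LYZ 0 or 1 and FCGR3A 0.

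APOBEC3C (ENSG00000244509, 39410088 to 39416357), an enzyme found in both nucleus and cytoplasm, was not called. Its levels were 145, 132 and 127 CPM with GST and 136, 115 and 126 CPM with GST-PTR1, and the treatments overlapped. The log2 fold change was −0.10 with a standard error of 0.11 (95% interval −0.33 to 0.14, edgeR, adjusted p = 0.536). APOBEC3H (ENSG00000100298, 39493229 to 39500072), the single-domain enzyme at the far end of the row, was barely detected. It had 6, 10 and 7 counts with GST and 9, 17 and 5 with GST-PTR1, above the 3 counts taken as the limit but too few for the filter of the test. With the filter set to at least 1 count in any library, its log2 fold change was −0.06 (edgeR, adjusted p = 0.949).

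The double-domain enzymes differed among themselves. APOBEC3B (ENSG00000179750, 39378352 to 39388809), the member that stays in the nucleus and is the deaminase most often raised in tumour cells, had 1127, 1684 and 1441 counts with GST and 2469, 4688 and 2528 with GST-PTR1. These were 67.7, 67.5 and 68.2 CPM against 111, 119 and 92.5 CPM, with no overlap and with PTR005 the lowest of the treated libraries. Here too the GST libraries agreed more closely than counting error would give. The mean went from 67.8 ± 0.37 to 107.4 ± 13.5 CPM (SD, n = 3), a log2 fold change of 0.66 with a standard error of 0.11 and a 95% interval of 0.42 to 0.91 (edgeR, adjusted p = 0.00183). The antisense gene APOBEC3B-AS1, which overlaps its 3′ part, had 1 count in a single library, and reads were counted by strand.

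APOBEC3G (ENSG00000239713, 39436924 to 39483748), a cytoplasmic enzyme packaged into retroviral particles, stood at 38.0, 39.5 and 37.2 CPM with GST and 50.1, 55.3 and 39.0 CPM with GST-PTR1. PTR005 lay within the range of the GST libraries and the other 2 GST-PTR1 libraries lay above it. The log2 fold change was 0.33 with a standard error of 0.13 (95% interval 0.04 to 0.63), and it was not called (edgeR, adjusted p = 0.0997), although it was among the 3 members with an unadjusted p under 0.05. Without PTR005 it was 0.47 and was called (edgeR, adjusted p = 0.0386). Without PTR004 it was 0.23 and on library totals 0.13, and neither was called (edgeR, adjusted p = 0.289 and 0.489).

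APOBEC3D and APOBEC3F, the other pair of cytoplasmic restriction factors, were low and were not called. APOBEC3D (ENSG00000243811, 39410368 to 39429281) was at 4.32, 4.13 and 2.75 CPM with GST and 4.53, 4.79 and 4.47 CPM with GST-PTR1, so its treated libraries lay above the others by a narrow margin, with GST005 lowest. Its log2 fold change was 0.31 with a standard error of 0.20 (95% interval −0.13 to 0.74, edgeR, adjusted p = 0.291). On plain library totals its treatments overlapped. APOBEC3F (ENSG00000128394, 39436609 to 39449915) was at 9.37, 7.98 and 7.86 CPM with GST and 8.97, 10.6 and 7.61 CPM with GST-PTR1, which overlapped. Its log2 fold change was 0.12 with a standard error of 0.16 (95% interval −0.24 to 0.47, edgeR, adjusted p = 0.637), and it was −0.09 on library totals and −0.0020 without PTR004.

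UNG (ENSG00000076248), the main enzyme that removes uracil from DNA in nucleus and mitochondria, was not called. Its levels were 54.7, 55.3 and 51.7 CPM with GST and 59.0, 54.7 and 56.8 CPM with GST-PTR1, and the treatments overlapped. The log2 fold change was 0.08 with a standard error of 0.10 (95% interval −0.14 to 0.29, edgeR, adjusted p = 0.607), so a change of the size seen in APOBEC3B lay outside its interval. On library totals the value was −0.12.

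**Figure D2:**
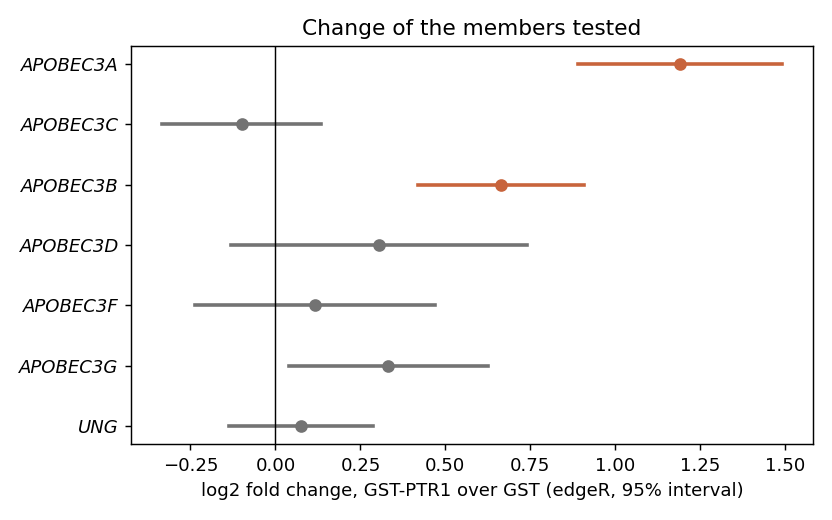
Log2 fold change, GST-PTR1 over GST, of the 7 members tested, with 95% intervals from edgeR on 3 libraries per treatment. The members called are coloured, APOBEC3A at 1.19 and APOBEC3B at 0.66, and the intervals of the others reach 0 or, for APOBEC3G, begin at 0.04.

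The scale between libraries matters here. Without TMM factors the median of all genes tested shifted by −0.20 on the log2 scale. APOBEC3A and APOBEC3B were still called on library totals, at 0.99 and 0.47 on the log2 scale. There the GST-PTR1 libraries were all higher for 2 members (8.71% of all genes tested), APOBEC3A and APOBEC3B, and all lower for 1 member (34.4%), APOBEC3C.

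The order of the members was read from RPKM (CPM on the library total divided by kilobases of exon), since levels of different genes compare only per length. With GST, all 3 libraries had the same order, APOBEC3C, APOBEC3B, UNG, APOBEC3G, APOBEC3A, APOBEC3F, APOBEC3D and APOBEC3H. APOBEC3C stood at 51.2 ± 4.66 RPKM and APOBEC3B at 38.3 ± 0.714 (SD, n = 3), without overlap. UNG followed at 22.5 ± 1.13, APOBEC3G at 7.45 ± 0.277 and APOBEC3A at 4.4 ± 0.105 RPKM. APOBEC3F was at 2.78 ± 0.337, APOBEC3D at 1.57 ± 0.386 and APOBEC3H at 0.312 ± 0.0312 RPKM, and no neighbours in this order overlapped.

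With GST-PTR1 the first and second places by RPKM were exchanged in all 3 libraries. APOBEC3B was at 56.9, 55.3 and 46.2 RPKM and APOBEC3C at 47.2, 35.9 and 42.3 RPKM, so that APOBEC3B led within each library although the ranges overlapped across libraries. Without division by length APOBEC3B had more counts than APOBEC3C in PTR004 alone. RPKM divides by all exon bases, while reads from the windows shared between members were left out, and these made up far more of APOBEC3B than of APOBEC3C. The level of APOBEC3B per length may therefore be understated in both treatments, and which of the pair leads with GST is uncertain. UNG came next at 20.7 ± 1.81 RPKM. APOBEC3A, at 8.71 ± 0.731, and APOBEC3G, at 8.17 ± 1.25 RPKM, did not differ beyond their spread, with APOBEC3A ahead in PTR004 and PTR005 and APOBEC3G in PTR002. APOBEC3F, at 2.60 ± 0.337, and APOBEC3D, at 1.69 ± 0.0421, kept their places, and APOBEC3H was last at 0.252 ± 0.0987 RPKM. The length used bears on APOBEC3G most, because its annotated exons add up to 5496 bases and its longest coding transcript to 1834. Per kilobase of longest coding transcript, APOBEC3G was at 22.3 ± 0.83 with GST and 24.5 ± 3.73 with GST-PTR1, close to UNG at 27.1 ± 1.37 and 25.0 ± 2.18. On that length APOBEC3A was at 5.98 ± 0.143 and 11.8 ± 0.994, below APOBEC3G in every library. The likeness of APOBEC3A and APOBEC3G with GST-PTR1 therefore holds for RPKM only.

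Within a library, the share of each enzyme in the summed APOBEC3 RPKM does not depend on the scaling between libraries. It does depend on the length used and on the shared windows left out of the counts. Per kilobase of longest coding transcript APOBEC3G was at 22.3 with GST, against 7.45 RPKM, while APOBEC3C was at 51.2 on both. APOBEC3C made up 49.9, 47.6 and 47.1% of the sum with GST and 37.4, 31.3 and 39.3% with GST-PTR1, with no overlap. APOBEC3B made up 34.6, 36.3 and 37.6% with GST and 45.1, 48.3 and 43.0% with GST-PTR1. APOBEC3A went from 4.16 ± 0.144 to 7.54 ± 0.865% (SD, n = 3), again with no overlap. APOBEC3H, at 0.294 ± 0.0283 and 0.215 ± 0.0747%, did not overlap either, but by a margin too narrow to read. Its lowest GST share was 0.277% (GST005) and its highest GST-PTR1 share 0.266% (PTR004), on 5 to 17 counts per library. For each of these 4 shares the two-sided exact permutation test gave p = 0.1, the smallest that 3 against 3 libraries allow, and 0.175 after Benjamini-Hochberg adjustment over the 7 shares. The shares of APOBEC3D (1.48 and 1.46%), APOBEC3F (2.62 and 2.24%) and APOBEC3G (7.04 and 7.02%) overlapped. A larger share of one member lowers those of the others, so the shares do not move independently.

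**Figure D3:**
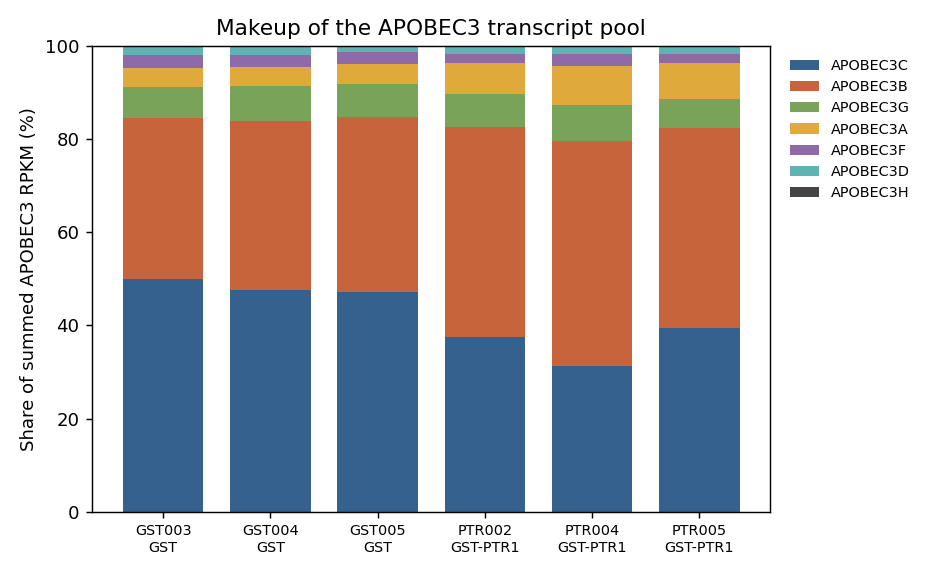
Makeup of the summed APOBEC3 RPKM in each of the 6 libraries, in percent of the sum. The shares depend on the exon length by which counts were divided. APOBEC3C takes 47.1 to 49.9% of the sum in the GST libraries and 31.3 to 39.3% in the GST-PTR1 libraries, where the APOBEC3B segment, at 43.0 to 48.3%, is the widest.

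Expressed as counts of one gene against another in the same library, APOBEC3B had 46.7, 51.3 and 53.7 counts per 100 counts of APOBEC3C with GST and 81.2, 103.7 and 73.5 with GST-PTR1. APOBEC3A had 12.2, 12.2 and 12.1 counts per 100 counts of APOBEC3B with GST and 15.6, 18.3 and 18.9 with GST-PTR1. Both ratios were higher in every GST-PTR1 library than in any GST library (exact permutation test, two-sided, p = 0.1 each, the smallest possible). The log2 ratio of UNG to the summed APOBEC3 RPKM was −2.24 ± 0.05 with GST and −2.49 ± 0.12 with GST-PTR1 (SD, n = 3). All 3 treated libraries were lower, with a difference of −0.25 (exact permutation test, two-sided, p = 0.1).

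Of 11 other polynucleotide and nucleoside deaminases, 7 were tested, 1 was higher and none was lower, where 20.6% of all genes tested were called, at an adjusted p under 0.05 (edgeR, 1 of the 7 at an unadjusted p under 0.05), with a median log2 fold change of −0.09. APOBEC1, APOBEC2 and APOBEC4 had 0 counts in every library. ADAR, which converts adenosine to inosine in double-stranded RNA, was at 945, 925 and 896 CPM with GST and 1395, 1174 and 1323 CPM with GST-PTR1. It rose by 0.49 on the log2 scale (edgeR, adjusted p = 0.0121), and the call was lost without GST004 (0.0565), without PTR005 (0.0548) or on library totals (log2 change 0.30, adjusted p = 0.0999).

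The genes of uracil excision and base excision repair, some of which act on oxidised bases and not on uracil, were called about as often as genes at large. All 18 were tested, and 2 were higher and 2 lower, where 9.15% and 11.4% of all genes tested were, with a median log2 fold change of 0.02. TDG, a glycosylase for thymine and uracil opposite guanine, was at 27.4, 32.7 and 38.4 CPM with GST and 43.1, 51.0 and 45.1 CPM with GST-PTR1 (log2 fold change 0.50 ± 0.14 SE, edgeR, adjusted p = 0.0253). LIG3, a DNA ligase of single-strand break repair, rose by 0.41 (edgeR, adjusted p = 0.0248). NEIL1 and NEIL3, glycosylases for oxidised bases, fell by 1.22 and 0.62 on the log2 scale (edgeR, adjusted p = 0.0182 and 0.0235), NEIL1 from a level of about 1 CPM or below. Each of these 4 calls was lost when certain single libraries were left out. TDG lost its call without GST003, GST004, PTR004 or PTR005 (edgeR, adjusted p = 0.0602, 0.0855, 0.0745 and 0.0622) and LIG3 without GST004, GST005 or PTR005 (0.108, 0.0663 and 0.093). NEIL1 lost it without GST004, PTR004 or PTR005 (0.0815, 0.0596 and 0.0755) and NEIL3 without GST004, GST005, PTR004 or PTR005 (0.0646, 0.0733, 0.0636 and 0.0966). On library totals none of the 18 was called higher and 5 were lower. The other glycosylases that take uracil, SMUG1 and MBD4, had log2 fold changes of −0.02 and 0.16 (edgeR, adjusted p = 0.925 and 0.388). The abasic-site endonuclease APEX1 was at 0.21 (edgeR, adjusted p = 0.175) and the flap endonuclease FEN1 at 0.28 (0.0769), and the scaffold protein XRCC1 at −0.37 (0.0607).

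Uracil also enters DNA from the nucleotide pool, and an unrepaired lesion is passed to mismatch repair or translesion synthesis. Of 10 genes of nucleotide pool control, 1 was lower and none higher, where 11.4% and 9.15% of all genes tested were. At an unadjusted p under 0.05 there were 2 (edgeR), and the median log2 fold change was 0.11. The gene lower was RRM2B, a subunit of the ribonucleotide reductase used outside S phase, which fell by 0.43 (edgeR, adjusted p = 0.0218). That call was lost without GST005, PTR002, PTR004 or PTR005 (edgeR, adjusted p = 0.0641, 0.0689, 0.06 and 0.0595). Of 18 genes of mismatch repair and translesion synthesis, 1 was higher and 1 lower, where 9.15% and 11.4% of all genes tested were. Their median log2 fold change was −0.05. EXO1, an exonuclease of mismatch repair, went from 67.8, 68.9 and 75.6 to 96.5, 97.4 and 95.2 CPM, a log2 change of 0.45 (edgeR, adjusted p = 0.00723). On library totals EXO1 was at 0.25 and was not called (adjusted p = 0.0942). HMCES, which shields abasic sites in single-stranded DNA, went from 19.8, 20.04 and 20.6 to 13.3, 11.3 and 12.6 CPM, a log2 change of −0.71 (edgeR, adjusted p = 0.00182).

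Of 14 other factors that restrict retroviruses, 4 were higher, 0 were lower and 10 were not called. Of all genes tested, 9.15% were higher and 11.4% lower. At an unadjusted p under 0.05 there were 6 factors (edgeR), and the median log2 fold change was 0.24. IFI16, a nuclear DNA sensor, was at 478, 551 and 563 CPM with GST and 960, 1006 and 913 CPM with GST-PTR1, a log2 change of 0.86 (edgeR, adjusted p = 0.000394). TRIM22, an interferon-inducible ubiquitin ligase, was 1.02 higher on the log2 scale (edgeR, adjusted p = 0.000645). IFITM1, a membrane protein that hinders virus entry, was 0.65 higher (edgeR, adjusted p = 0.00322), counted on the part of its exons outside the 32.5% that IFITM2 overlaps. The remaining gene called higher was MX2.

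Transcription factors of the NF-κB, STAT and IRF families, pathways known to act upstream of APOBEC3 genes, had the highest median of the 7 lists. Of 11 genes, 8 were higher and none was lower, where 9.15% and 11.4% of all genes tested were. At an unadjusted p under 0.05 there were 8 (edgeR), and the median log2 fold change was 0.74. Of the genes higher, 5 reached 2-fold, where 3.68% of all genes tested were called higher at 2-fold or more. RELB was at 20.6, 20.8 and 17.4 CPM with GST and 102.7, 90.8 and 92.6 CPM with GST-PTR1 (log2 fold change 2.28, edgeR, adjusted p = 2.16e-07). NFKB2, its p100 and p52 partner, changed by 2.09, NFKB1 by 1.84, IRF1 by 1.73 and STAT3 by 1.62. IRF7, central to the interferon response, changed by 0.74, whereas STAT2, IRF3 and IRF9, which act in the same response, had log2 fold changes of −0.04, −0.13 and 0.10 and were not called (edgeR, adjusted p = 0.869, 0.426 and 0.699). For IRF9, 48.4% of the exon sequence overlaps ENSG00000259529 in the same orientation, and reads there were not counted. REL changed by 0.66 and RELA by 0.35 (edgeR, adjusted p = 0.0245 and 0.0444). For REL, 50.7% of the exon sequence overlaps ENSG00000267520 in the same orientation, and reads there were not counted. It lost its call without GST004 or PTR005 (0.0963 and 0.0874), and RELA without GST004, GST005, PTR002 or PTR005 (0.0958, 0.116, 0.116 and 0.148). On library totals neither was called, REL at 0.46 (adjusted p = 0.089) and RELA at 0.15 (0.399). The study treats NF-κB as the response to this protein, so the choice of that list is not independent of these libraries. The DREAM and B-MYB complexes repress or drive cell cycle genes and have been linked to APOBEC3B. Of their 12 genes, 1 was lower and none higher, where 11.4% and 9.15% of all genes tested were. At an unadjusted p under 0.05 there were 2 (edgeR), and the median log2 fold change was −0.06. The gene lower was RBL2, which encodes the pocket protein p130 (−0.40, edgeR, adjusted p = 0.0254), and it was not called without GST003, GST005, PTR004 or PTR005 (0.0653, 0.0599, 0.0861 and 0.106).

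**Figure D4:**
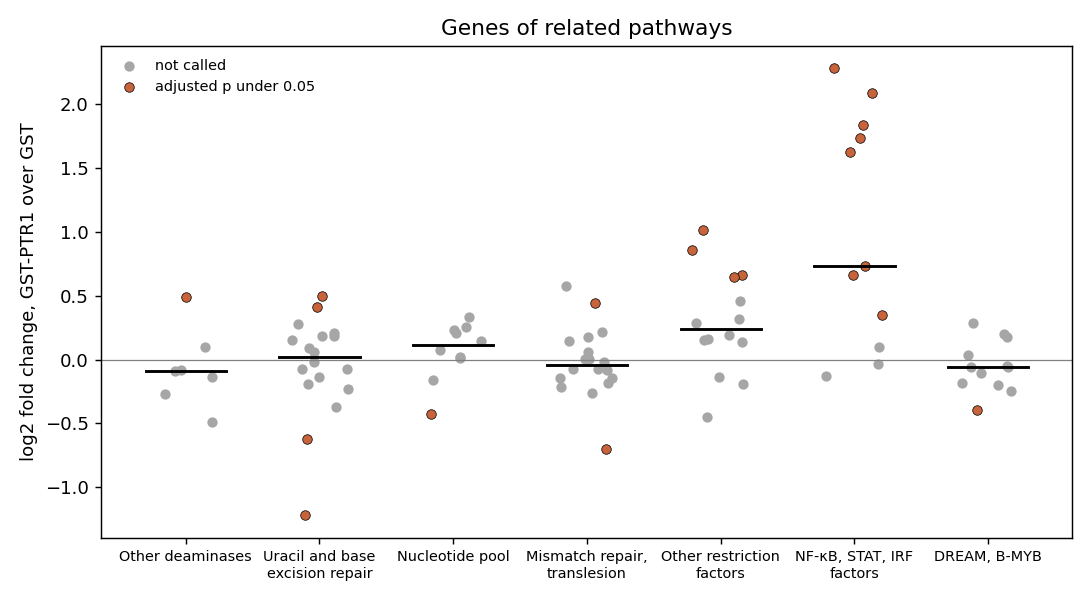
Log2 fold change, GST-PTR1 over GST, of every tested gene in 7 lists of related pathways, with a line at each list's median. Orange points passed an adjusted p under 0.05. The NF-κB, STAT and IRF factors have the highest median, 0.74, with 8 of 11 called higher (9.15% of all genes tested). The other medians lie between −0.09 and 0.24.

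Of 28 genes within 250 kb of the APOBEC3 row, 12 were tested, 1 was higher (9.15% of all genes tested) and 3 were lower (11.4%), with a median log2 fold change of 0.21. CBX7, a Polycomb protein encoded just beyond APOBEC3H, went from 16.2, 11.3 and 11.2 to 6.996, 5.93 and 7.17 CPM (log2 fold change −0.94, edgeR, adjusted p = 0.0033). SUN2, of the nuclear envelope, and NPTXR, a pentraxin receptor, on the other side of the row, fell by 0.66 and 0.83 (edgeR, adjusted p = 0.00681 and 0.0068). The gene higher, ENSG00000272669, was at 2.41 to 4.05 CPM with GST and 4.77 to 6.10 CPM with GST-PTR1 (0.81, edgeR, adjusted p = 0.0237), and it was not called without GST005, PTR002 or PTR005 (0.078, 0.0518 and 0.0638) or on library totals (0.061).

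For the 3 members with the most counts, the genes whose log2 CPM over the 6 libraries was most like theirs are given as a description. The libraries share the split by treatment. The genes were also picked as the highest among all genes tested, and with 6 libraries such picking alone gives high values. They were ENSG00000230195 and POU2AF1 for APOBEC3C (Pearson's r of 0.996 and 0.995), CEBPG and RBM4 for APOBEC3B (0.994 and 0.993) and DNAJC11 and USP41 for UNG (0.993 and 0.989).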

How the data were processed

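RNA-Seq of RPMI8226 cells was made from poly(A)-selected, stranded libraries. The authors deposited 1 table of whole-number counts of reads per gene, made with featureCounts (Subread) 1.5.0-p1 from the Ensembl 75 annotation of GRCh37, counting single reads by strand (setting 2) and leaving out reads that fitted several places or genes. The submitters' processing notes list FastQC, Subread, featureCounts and limma without their roles, and which tool aligned the reads is not stated there. The table also holds exon lengths and no normalized values, and all 6 columns belong to these samples. Column numbers differ from the labelled replicates, so columns were assigned to a treatment only. No 2 libraries of a treatment agreed within sampling noise.

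From the counts, R 4.3.3 with edgeR 4.0.16 (TMM factors, filterByExpr, quasi-likelihood test, Benjamini-Hochberg adjustment over all genes tested, threshold 0.05) gave log2 fold changes, standard errors and adjusted p-values. The procedure was tested on simulated data, where the share of false calls came out somewhat above the threshold. CPM and RPKM were computed from counts, totals and deposited exon lengths. Fewer counts mean wider error, and limits of 3 counts cover counting error only. Exact permutation tests over 3 against 3 libraries cannot go below p = 0.1. The replicates are described as biological, with no statement on separate cultures, so p-values measure the spread between these libraries, which may be technical.

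Alternatives were DESeq2 size factors, library totals, DESeq2 1.42.0, limma 3.58.1 (voom), a minimum of 1 count in some library or of 10 counts in each, leaving out each library, and a replicate block. The members and lists were chosen with earlier results of these data known, and some genes are not reported here. All members were named, together with up to 3 genes per list or neighbourhood by adjusted p, any gene of the lists of uracil excision and upstream factors, and the 2 genes most like each of the 3 members with the most counts. APOBEC1, APOBEC2, APOBEC4, APOBEC3B-AS1, MX2 and ENSG00000272669 were named after their values were seen. Cell type markers were named outside the rule above, the plasma cell and myeloid ones in full and CD8A, EPCAM and KRT18 for their level.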

Additional observations from a re-analysis of the deposited data

How the results depend on the processing

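APOBEC3A and APOBEC3B were called higher under all 14 alternatives, with log2 fold changes of 0.99 to 1.25 and 0.47 to 0.77, and no alternative called a member lower. With library totals, APOBEC3F was at −0.0879 and UNG at −0.12, both on the other side of 0 and not called, and APOBEC3F ranged from −0.0020 (without PTR004) to 0.23 (without PTR005) when 1 library was left out. APOBEC3G was called with the filter of at least 1 count in any library (log2 fold change 0.36, edgeR, adjusted p = 0.0422) and without PTR005 (0.47, adjusted p = 0.0386), the highest of the values with 1 library left out, which began at 0.23 without PTR004. With library totals, 10 genes of the pathway lists were higher and 16 lower, against 16 and 5, since that scale lowers the median of all genes. Leaving out 1 library at a time gave 11 to 16 higher and 1 to 5 lower, with the lowest numbers lower without PTR004 or PTR005 (1 each), GST005 (2) or GST004 (3). Of the chromosome 22 neighbours, 0 were higher and 5 lower with library totals, and leaving out single libraries gave 0 to 2 higher. The share of APOBEC3G differed by 0.615 percentage points in CPM without length, against −0.0219 in RPKM.

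The numbers 004 and 005 occur in columns of both treatments. The deviations of these libraries from the treatment means correlated at 0.253 (004) and −0.0276 (005) across genes. Libraries with different numbers gave values from −0.469 to 0.365. These correlations therefore cannot tell whether a shared number marks a shared replicate. In a fit of the 4 libraries with that replicate block, APOBEC3A was at 1.25 and APOBEC3B at 0.63 (edgeR, adjusted p = 0.000477), 2 members were higher and 0 lower, and 15 list genes were higher and 5 lower. ADAR (adjusted p = 0.0543), RELA (0.105) and RRM2B (0.0821) were not called there, and neither were RELA (0.0768) and RRM2B (0.0565) in the same 4 libraries with no replicate block. The block gave 2 neighbours higher, as did the fit without it, an alternative chosen after seeing the data, as was the length of the longest coding transcript. Depth limits APOBEC3H, at 5 to 17 counts.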
